A study of Rattus norvegicus with 2 samples.

Results

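The genes of sterol synthesis and of the SREBP response described here are Hmgcs1, Idi1, Fdps, Fdft1, Sqle, Cyp51, Insig1 and Scd. They were chosen by name, and every probe set that the platform annotation paired with 1 of these symbols alone was taken. Of the 8 genes, 7 had such a probe set, with 19 probe sets in all, out of 4736 genes and 7006 probe sets with a single symbol on the array. Hmgcs1, which makes HMG-CoA, was not analysed here. The choice was made with the ratios of these 2 arrays known, so the values below are a description.

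The samples were cultured rat endothelial cells of 2 origins, the endocardium, the inner lining of the heart, and the aorta. Per the labels, cells of both origins came from the same 2 rats, were pooled by origin and were grown for 2 passages with culture conditions and confluence matched as closely as the laboratory could. Strain, age and sex are not given in the sources used here. Total RNA of each pool was hybridised to 1 Affymetrix rat U34A array, giving 1 endocardial and 1 aortic array. No difference below therefore has a replicate check, none was tested, and array, culture and origin cannot be told apart.

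Cholesterol is built from acetyl-CoA through mevalonate, the isoprenoid diphosphates and squalene, and then through lanosterol and a chain of demethylations and reductions. Most enzymes of this route are switched on by SREBPs, transcription factors made as membrane precursors of the endoplasmic reticulum. When sterols are scarce, the escort protein Scap carries the precursor to the Golgi, where proteases release its active part. When sterols are plentiful, Insig proteins hold Scap back, and Insig1 is itself a gene that SREBPs switch on. SREBPs also act on genes of fatty acid synthesis and desaturation, among them the stearoyl-CoA desaturases. The liver X receptors, which sense oxysterols, act on cholesterol efflux genes and also raise transcription of Srebf1 and of stearoyl-CoA desaturase.

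Intensities are on the linear scale as deposited, where values near and under 0 occur. Ratios are endocardial over aortic, after both arrays were scaled to the same trimmed mean, which changed them by factors of 0.999 and 1.001. A probe set was kept when it was above a floor of 635.4, the median of all scaled values, on at least 1 array, and values under the floor were set to it. The brightest of 38 background controls (opposite-strand, bacterial, yeast and mouse probe sets) stood at 1742.4; this value is called the background ceiling, and intensities under it are not distinguished from background. Of the 19 member probe sets, 15 were kept, and 11 were above the background ceiling on both arrays. The spread between probe sets of the same gene was taken within this pair of arrays. The log2 ratios had an SD of 0.30 over 867 probe sets of 385 genes above that ceiling on both arrays. The SD was 0.33 with 1 probe set per sequence entry (548 probe sets of 247 genes). With the floor in place of the ceiling it was 0.39, over 1432 probe sets of 625 genes. All were read on the same 2 arrays, so error of array and culture is left out. This spread is therefore not the precision of an endocardial over aortic ratio. The 9 bacterial and phage spike-in probe sets had log2 ratios from -0.25 to 0.36. The array's own Gapdh controls had log2 ratios from -0.54 to -0.39 and its beta-actin controls from -0.18 to -0.16.

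The labelled cell type was checked against marker genes. Of 9 endothelial markers, 7 were on the array, of which 1 exceeded the background ceiling in endocardial cells and 3 in aortic cells. Thbd exceeded it on both arrays, with 2849.8 on the endocardial and 3918.4 on the aortic array, and Ace and Nos3 on the aortic array alone. Vwf, Pecam1, Kdr and Flt1 were under it on both arrays, and Kdr was at or below 0 on both. Of the 4 measured, 0 were at least 2-fold higher and 1 lower, Ace, beside 5.93% and 4.16% of all measured genes. Against the background ceiling Ace was dimmer by 1.32-fold. The endothelial identity of the cells therefore rests on the labels. The brightest probe sets of the smooth muscle markers on the array (6 of 7) summed to 157280.6 on the endocardial and 120888.4 on the aortic array. Of these genes, 1 was at least 2-fold higher, Myl9, and 1 lower, beside 5.93% and 4.16% of all measured genes. Against the background ceiling the lower gene, Myh11, was dimmer by 1.45-fold only. The fibroblast markers (7 of 7) summed to 252141.6 on the endocardial and 338195.8 on the aortic array, with 0 higher and 2 lower. The macrophage and leukocyte markers (7 of 8) summed to 50251.6 on the endocardial and 8513.3 on the aortic array. Most of the endocardial sum was Lyz2, at 33638.5 on the endocardial and 287.6 on the aortic array. The pan-leukocyte gene Ptprc was under the background ceiling on both. Against the floor, 5 of the 7 were past 2-fold with the endocardial array brighter, beside 5.93% of all measured genes, and 0 with it dimmer. Of these 5, Lyz2, Ctss, Cd53 and RT1-Da passed the floor on the endocardial array alone, so their ratios could only be positive. Of Cd74, only probe set X14254cds_at passed it on both arrays. Against the background ceiling, only Lyz2 of these 5 stayed past 2-fold, at 19.3-fold. Ctss was then 1.94-fold, Cd53 1.15-fold, RT1-Da at most 1.52-fold and Cd74 at most 1.64-fold brighter. Of the 6 cardiomyocyte markers, 1 exceeded the background ceiling on each array. The part of these other cell types in the sterol gene ratios was not tested. In bulk RNA, fewer cells of a type and less RNA per cell cannot be told apart.

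Insig1 and Scd were at least 2-fold lower on the endocardial array, while the gene values of the 5 measured enzymes of sterol synthesis all differed by less than 2-fold. The signal of Insig1, whose protein retains Scap, was 3.24-fold lower. That of Scd, which encodes a desaturase that makes oleate from stearate, was at least 2.18-fold lower against the background ceiling. Among the enzymes, Cyp51 was 1.43-fold and Fdps 1.30-fold lower, Idi1 and Sqle were 1.03-fold and 1.06-fold higher, and the probe sets of Fdft1 went both ways. Thus 2 of the 7 members were at least 2-fold lower, and 0 were at least 2-fold higher. Over all 2935 genes measured, 4.16% were at least 2-fold lower and 5.93% at least 2-fold higher. With the floor raised to the background ceiling the members' counts were the same, and the shares over all 1904 genes then measured were 2.36% lower and 3.99% higher. Counted as probe sets, 4 of the 15 kept were at least 2-fold lower, against 4.7% of the 3975 kept probe sets with a single gene symbol, and 1 was at least 2-fold higher, against 6.82%. Scd was kept only through its aortic value, so its ratio could only be negative, and its log2 ratio was -0.56, inside 2-fold, when the 75th percentile of scaled values was the floor. The median log2 ratio of the 7 members was -0.38, and that of all measured genes was -0.02.

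**Figure D1:**
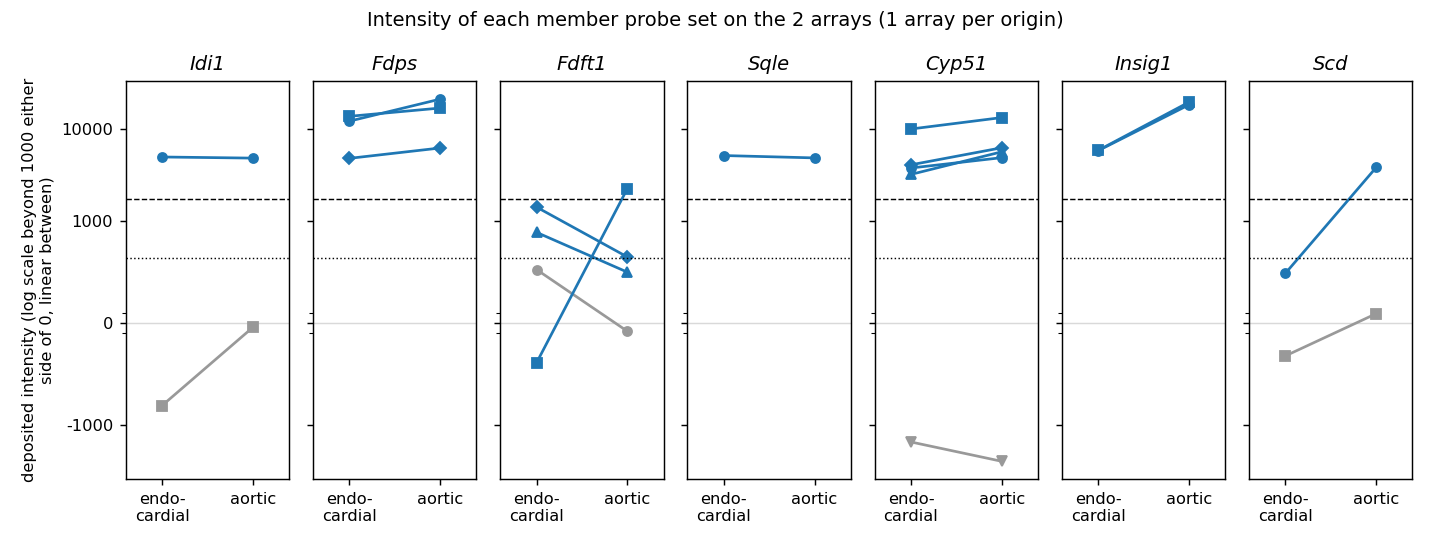
Deposited intensity (vertical axis, log scale beyond 1000 on either side of 0 and linear between) of each of the 19 member probe sets on the endocardial array (left in each panel) and the aortic array (right), joined by a line. Grey marks probe sets under the floor on both arrays, the dotted line is the floor (635.4) and the dashed line the background ceiling (1742.4); the lines of Insig1 and Scd are steep, those of Idi1 and Sqle nearly level, and those of Fdft1 cross.

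Insig1 is described first because it is the feedback arm of the pathway. Its upstream sequence (250 bases, chr4:8057770-8058019 on the minus strand, build GRCr8, from RefSeq) is shown because it carries in a single stretch an NF-Y box, an Sp1 box and an E-box, which are in capitals (ATTGG and CCGCCC are the NF-Y and Sp1 boxes read from the opposite strand):
Insig1: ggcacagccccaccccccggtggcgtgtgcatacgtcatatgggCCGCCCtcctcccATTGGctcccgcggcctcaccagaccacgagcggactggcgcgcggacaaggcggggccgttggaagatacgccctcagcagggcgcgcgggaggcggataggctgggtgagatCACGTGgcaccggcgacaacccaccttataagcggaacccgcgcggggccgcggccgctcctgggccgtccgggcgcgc
Probe set L13619_at had an intensity of 5771.7 on the endocardial and 18160.2 on the aortic array, a log2 ratio of -1.66. Probe set L13619_g_at had 5815.2 on the endocardial and 19408.0 on the aortic array, a log2 ratio of -1.74. Both probe sets were thus low on the endocardial array and lay well above the background ceiling on both. They were designed from the same sequence entry, so they are not independent. The gene's log2 ratio was -1.70, and 18 of the 1904 genes measured against the background ceiling had a lower ratio.

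Srebf1 encodes one of the SREBPs and was the only other gene of the SREBP machinery that was kept. Its single probe set had an intensity of 442.4 on the endocardial and 1682.6 on the aortic array. The endocardial value was under the floor, which makes Srebf1 at least 2.65-fold lower against the floor. Both values were under the background ceiling, so no level is shown for it on either array. Mbtps2, which encodes a protease that releases SREBPs, and the kinase genes Prkaa1 and Prkaa2 were under the floor on both arrays. Srebf2, Scap and Insig2 were not analysed here.

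Scd encodes the stearoyl-CoA desaturase of liver and adipose tissue. Its upstream sequence (chr1:253231732-253231981 on the minus strand, build GRCr8, from RefSeq) held none of the motifs searched and is shown beside that of its paralog Scd2 (chr1:253118127-253118376 on the plus strand), which lies on the same chromosome and held 2 NF-Y boxes, in capitals:
Scd: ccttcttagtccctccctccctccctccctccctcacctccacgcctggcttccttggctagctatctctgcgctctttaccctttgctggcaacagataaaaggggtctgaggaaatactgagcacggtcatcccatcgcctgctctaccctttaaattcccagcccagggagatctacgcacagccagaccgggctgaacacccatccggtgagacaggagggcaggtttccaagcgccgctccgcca
Scd2: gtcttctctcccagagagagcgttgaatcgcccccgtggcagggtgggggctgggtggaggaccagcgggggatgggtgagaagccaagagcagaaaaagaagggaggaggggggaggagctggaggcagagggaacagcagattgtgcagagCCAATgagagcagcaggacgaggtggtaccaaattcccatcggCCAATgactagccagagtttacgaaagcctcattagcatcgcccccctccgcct
Scd probe set J02585_at had an intensity of 486.3 on the endocardial array, under the floor, and 3789.9 on the aortic array. Its other probe set, rc_AI175764_s_at, had -321.1 on the endocardial and 91.4 on the aortic array and gave no ratio. A lower Scd signal therefore rested on 1 probe set that was measured on the aortic array alone, at least 5.97-fold lower against the floor and at least 2.18-fold against the background ceiling.

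Scd2, the desaturase form known from brain and many other tissues, is no member but belongs to the same enzyme family. It was lower on the endocardial array with all 5 kept probe sets. Probe set AF036761_at had 2983.0 on the endocardial and 11468.9 on the aortic array. Probe set rc_AA875269_at had 11702.7 on the endocardial and 29447.7 on the aortic array. M15114_g_at, with the smallest difference, had 13402.3 on the endocardial and 26471.1 on the aortic array. These 3 and U67995_s_at were above the background ceiling on both arrays, and S75730_at exceeded it on the aortic array alone. The log2 ratios ran from -1.94 to -0.98 with a median of -1.33, a 2.52-fold lower signal, and a further probe set was below 0 on both arrays. Whether probes of Scd and Scd2 bind each other's transcripts was not checked here.

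The enzymes of sterol synthesis follow in pathway order. Idi1, the isomerase that sets the balance of the isoprenoid diphosphates, had 4926.0 on the endocardial and 4790.2 on the aortic array with probe set AF003835_at, a log2 ratio of 0.04. Its second probe set was below 0 on both arrays and carries no information on Idi1. Upstream of Idi1 (chr17:66547525-66547774 on the minus strand) lay 2 NF-Y boxes within the last part of the window, in capitals:
Idi1: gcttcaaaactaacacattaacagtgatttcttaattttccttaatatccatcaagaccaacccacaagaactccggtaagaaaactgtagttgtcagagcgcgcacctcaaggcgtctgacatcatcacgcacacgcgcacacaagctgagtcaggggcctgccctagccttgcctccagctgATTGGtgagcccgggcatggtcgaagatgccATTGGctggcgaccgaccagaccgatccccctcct

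Fdps makes farnesyl diphosphate, the branch point between sterols, ubiquinone, dolichol and protein prenylation. Probe set M89945mRNA_at had 12063.7 on the endocardial and 20932.7 on the aortic array, a log2 ratio of -0.80. Probe set M89945mRNA_g_at, from the same entry, had 13622.1 on the endocardial and 16752.1 on the aortic array, a log2 ratio of -0.30. Probe set rc_AI180442_at had 4761.0 on the endocardial and 6168.0 on the aortic array, a log2 ratio of -0.38. All 3 were lower on the endocardial array and above the background ceiling on both. Their range, from -0.80 to -0.30, was wider than the distance of the nearest of them from 0. The window upstream of Fdps (chr2:176804817-176805066 on the minus strand) is shown because it holds 2 NF-Y boxes, facing opposite ways, and an Sp1 box further upstream, in capitals:
Fdps: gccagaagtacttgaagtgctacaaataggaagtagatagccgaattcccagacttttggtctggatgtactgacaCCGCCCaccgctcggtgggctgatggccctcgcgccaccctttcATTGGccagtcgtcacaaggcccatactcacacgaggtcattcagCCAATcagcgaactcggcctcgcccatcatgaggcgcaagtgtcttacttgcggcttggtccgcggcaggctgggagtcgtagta

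Fdft1, squalene synthase, commits farnesyl diphosphate to sterols, and its probe sets disagreed. M95591_g_at was below 0, at -388.8, on the endocardial array and stood at 2225.6 on the aortic array. The probe set rc_H33426_at was brighter on the endocardial array, with 1406.7 against 646.3 on the aortic array, and rc_H33426_g_at had 886.4 on the endocardial and 497.7 on the aortic array. The last, M95591_at, was under the floor on both arrays, with 522.7 on the endocardial and -79.8 on the aortic array. Only the aortic value of M95591_g_at was above the background ceiling. The gene's log2 ratio was 0.48 as the median over kept probe sets, -0.35 with the floor at that ceiling and -1.81 with its brightest probe set, so no direction is given for Fdft1.

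Sqle, squalene epoxidase, is the oxygen-requiring step that opens the route from squalene to lanosterol. Its single probe set had 5108.2 on the endocardial and 4814.4 on the aortic array, a log2 ratio of 0.08. Both values were above the background ceiling, and their difference was smaller than the SD between probe sets of a gene.

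Cyp51, the cytochrome that demethylates lanosterol, was lower on the endocardial array with its 4 kept probe sets. U17697_s_at had 9920.1 on the endocardial and 13202.4 on the aortic array, a log2 ratio of -0.41. AB004096_at had 3740.3 on the endocardial and 4842.7 on the aortic array, a log2 ratio of -0.37. The other two had log2 ratios of -0.62 and -0.82, with 4051.3 and 3186.0 on the endocardial array against 6204.6 and 5608.1 on the aortic array. All of these values were above the background ceiling, and the gene's median was -0.52. The remaining probe set, rc_AI230255_at, was far below 0 on both arrays, with -1516.6 on the endocardial and -2459.0 on the aortic array. The window upstream of Cyp51 (chr4:30991443-30991692 on the plus strand) is shown because it differs from that of Fdps in holding 1 Sp1 box and none of the other motifs:
Cyp51: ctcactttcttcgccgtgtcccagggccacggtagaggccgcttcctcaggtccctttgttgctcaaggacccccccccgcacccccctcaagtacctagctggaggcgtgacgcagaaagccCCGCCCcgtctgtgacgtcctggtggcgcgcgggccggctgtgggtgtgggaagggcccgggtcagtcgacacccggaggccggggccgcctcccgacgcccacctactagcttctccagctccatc

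The motifs searched on both strands of these 250-base windows were TCACNCCAC, a consensus of the sterol regulatory element, TCACNTGA, an E-box form, CCAAT (NF-Y) and GGGCGG (Sp1), where N is any base. CACGTG (E-box), which can overlap TCACNTGA, was added after the sequences had been read. TCACNCCAC and TCACNTGA matched none of the windows upstream of Hmgcs1, Idi1, Fdps, Cyp51, Insig1, Scd or Scd2, and they were found in 0.974% and 3.34% of all 33469 promoter windows in the RefSeq table. Only exact matches to these strings were searched, so variant forms and sites outside the windows would be missed. The lack of a match therefore does not show that a gene lacks a sterol regulatory element. CCAAT was found upstream of Hmgcs1, Idi1, Fdps, Insig1 and Scd2, and in 34.0% of all windows. GGGCGG was found upstream of Hmgcs1, Fdps, Cyp51 and Insig1, and in 30.5% of all windows. CACGTG was found upstream of Insig1, and in 5.59% of all windows. A match is a description of the sequence, and genes with nearly equal and with lower endocardial signal both held NF-Y boxes. No upstream window was listed under the symbols Fdft1 and Sqle, so neither gene was searched.

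**Figure D2:**
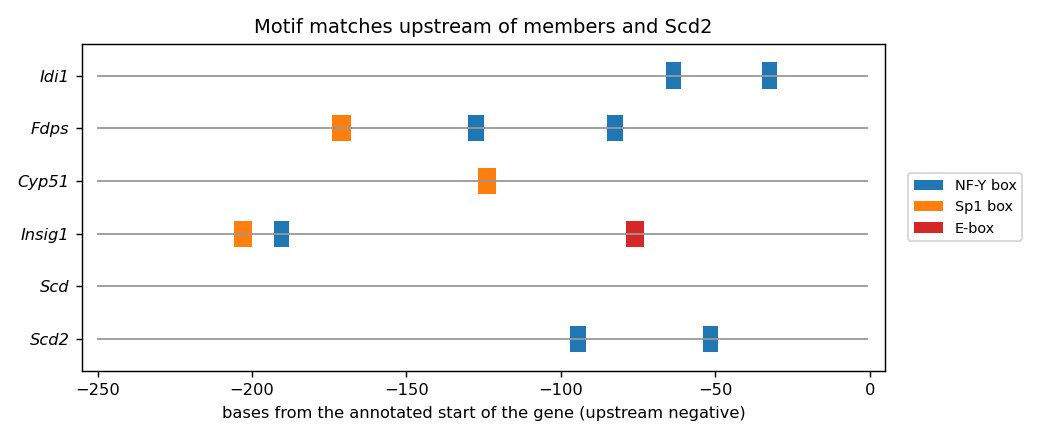
Positions of motif matches (coloured boxes) in the 250 bases upstream of the annotated start of 5 members and of Scd2; the horizontal axis is the distance in bases from the start. Insig1 has its E-box nearest the start, Idi1, Fdps and Scd2 have 2 NF-Y boxes each, and Scd has no match.

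The other enzymes of the route were set beside the members. Of 21 sterol synthesis enzymes listed, 15 were on the array and 14 were measured, of which 0 were at least 2-fold higher and 0 at least 2-fold lower. Their median log2 ratio was -0.32, with 9 of 14 ratios below 0, against 52.3% of all measured genes. Without the members, 7 of 9 ratios were below 0 with a median of -0.34. With the floor at the background ceiling, 8 of 11 were below 0 with a median of -0.19. Without the members, 5 of 6 were below 0 at that ceiling with a median of -0.12, against -0.02 for all genes. Those 5 include Acat1 (-0.01) and Ebp (-0.05), which lay near 0. Ebp exceeded the ceiling on the aortic array alone, so its ratio there could only be negative. Fdft1, given no direction, was counted above 0 against the floor (0.48) and below 0 against the ceiling (-0.35).

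Within that list the lowest ratio was that of Hsd17b7, a sterol ketone reductase, whose values of 613.9 on the endocardial and 946.1 on the aortic array were both under the background ceiling. Lss, which closes the ring of lanosterol, had 3000.6 on the endocardial and 5127.9 on the aortic array with its brighter probe set, and a gene median of -0.56. Dhcr7, the last reductase of the route, had a gene ratio of 0.48, with log2 ratios of 1.01 and -0.05 for its probe sets; Fdft1 had the same gene ratio, but no direction is given for it, as above. Chosen after their values were seen, Msmo1, the methyl sterol oxidase, had a ratio of -0.19 with both probe sets, and Acat2, which makes acetoacetyl-CoA, had -0.49. Acat1, the mitochondrial thiolase, had 0.42, or -0.01 with the floor at the background ceiling.

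**Figure D3:**
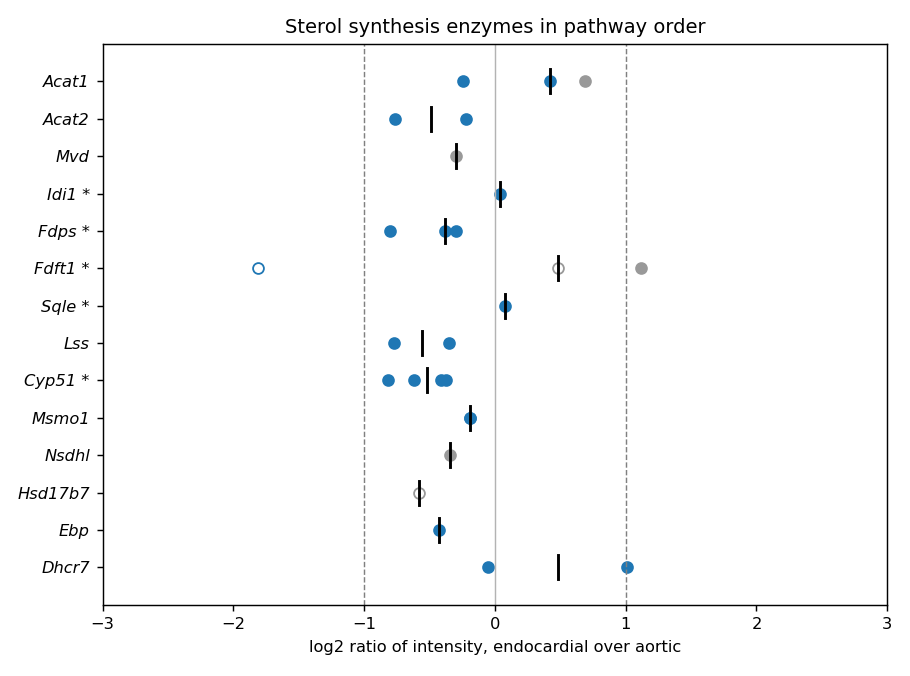
Log2 ratio of intensity, endocardial over aortic (horizontal axis), of each kept probe set (points) of 14 measured sterol synthesis enzymes in pathway order from top to bottom, with the gene's median as a black bar and members starred. Open points are bounds against the floor and grey points were under the background ceiling on both arrays; dashed lines mark 2-fold, which the medians of these enzymes do not reach.

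The fatty acid genes that SREBPs act on were taken next. Of 23 fatty acid and lipogenic genes listed, 13 were on the array and 11 were measured; 2 were at least 2-fold lower, Scd and Scd2, and 0 were at least 2-fold higher. Over all genes measured, 4.16% were at least 2-fold lower and 5.93% at least 2-fold higher. The median log2 ratio of the 11 was -0.08, near that of all genes (-0.02). Without the member Scd, 1 of 10 was at least 2-fold lower and the median was -0.04. Fatty acid synthase, Fasn, and Acly, which supplies cytosolic acetyl-CoA, were also picked after their values were seen. Fasn had 2961.0 and 2045.2 on the endocardial array against 3869.5 and 3041.7 on the aortic array, with a gene ratio of -0.48. Acly had a gene ratio of -0.46, and its 3 probe sets, from -0.55 to -0.31, were all lower. The highest ratios were those of Slc25a1, the mitochondrial citrate carrier, with 6514.3 on the endocardial and 3412.7 on the aortic array (log2 ratio 0.93), and of the acyl-CoA synthetase Acsl4 (0.20). Scd and Scd2 were thus lower by more than Fasn and Acly, a difference between genes picked with their values known that was not tested.

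Apoe was brighter on the endocardial array. Of 20 efflux, esterification and liver X receptor genes listed, 11 were on the array and 6 were measured; 2 were past 2-fold with the endocardial array brighter and 0 with it dimmer, and the median log2 ratio was 0.36. With the floor at the background ceiling, 1 of 3 measured genes, Apoe, was past 2-fold and the median was 0.18. Over all genes, 5.93% were at least 2-fold higher against the floor and 3.99% against the background ceiling. Apoe, the apolipoprotein that carries cholesterol away from cells, had 9585.6 on the endocardial and 4031.7 on the aortic array with probe set X04979_at. With probe set S76779_s_at the intensities were 5536.0 in endocardial cells and -618.1 in aortic cells. Both probe sets were higher on the endocardial array, 2.37-fold for the first and at least 3.18-fold against the background ceiling for the second. The second was kept only through its endocardial value, so its ratio could only be positive, and X04979_at alone was measured on both arrays. Nr1h2, a liver X receptor, had 1793.6 on the endocardial array, close to the background ceiling, and 892.3 on the aortic array, under it. Against that ceiling its ratio was 1.03-fold. The lowest ratios of the list were those of Cyp27a1 (0.15) and Soat1 (0.18), which esterifies cholesterol. Apoe is also a macrophage product. Of the macrophage and leukocyte markers, 6 of 7 were above the background ceiling in endocardial cells and 1 of 7 in aortic cells. Only Lyz2 among them was past 2-fold against that ceiling. The part of macrophages in the Apoe ratio was not tested.

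Of 16 uptake and transport genes listed, 8 were on the array and 7 were measured, of which 0 passed 2-fold in either direction, and their median log2 ratio was 0.12. Vldlr, a lipoprotein receptor, was the highest, with 7870.4 on the endocardial and 4133.9 on the aortic array (log2 ratio 0.93). Lipa, the lysosomal lipase that frees cholesterol from its esters, had a ratio of 0.86, or 0.23 with the floor at the background ceiling. Stard3 (-0.03) and Dbi (-0.02) were the lowest. Of 11 genes of the isoprenoid branches, 5 were on the array and 4 were measured, with 0 past 2-fold and a median of -0.16. Fntb, the beta subunit of farnesyltransferase, which uses the product of Fdps, had 5008.6 on the endocardial and 8880.5 on the aortic array with its brighter probe set and a gene ratio of -0.79. Rabggtb had -0.21, Fnta -0.11 and Pggt1b 0.24.

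**Figure D4:**
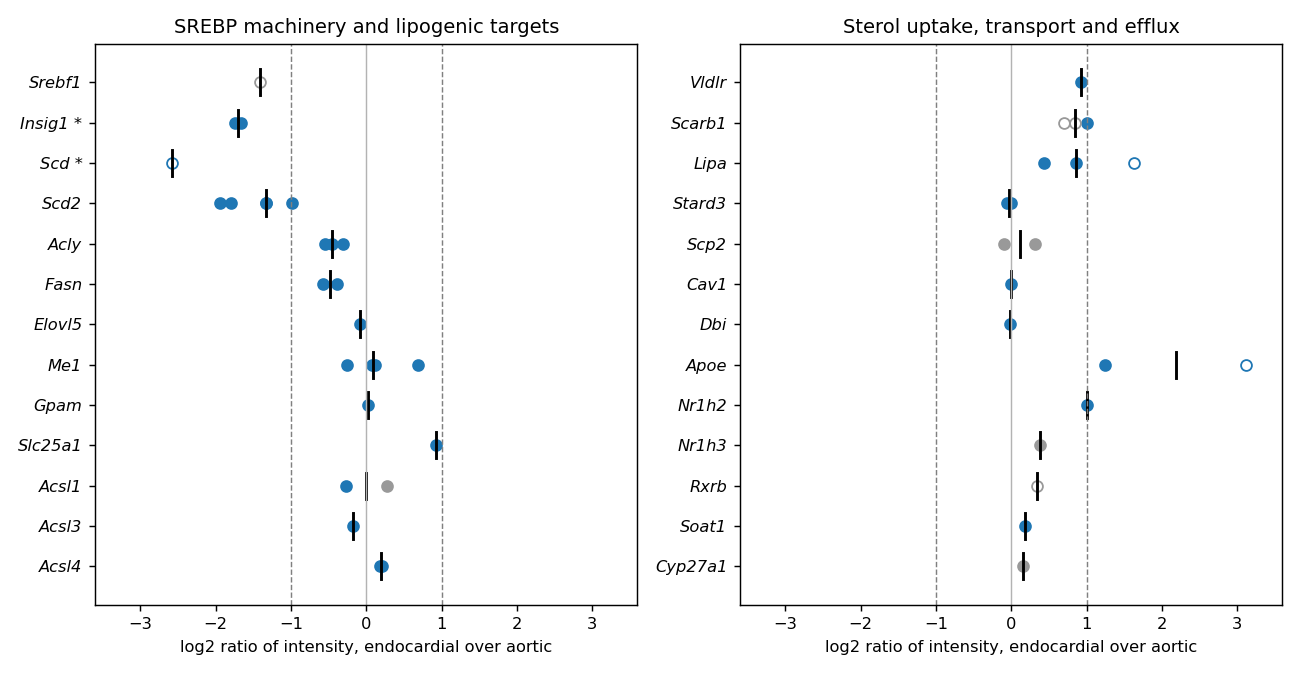
Log2 ratio of intensity, endocardial over aortic (horizontal axis), of each kept probe set (points) and the median per gene (black bar) for the SREBP machinery with lipogenic targets (left) and for sterol uptake, transport and efflux (right); members are starred. Open points are bounds against the floor and grey points were under the background ceiling on both arrays; beyond 2-fold (dashed lines) lie the medians of Srebf1, Insig1, Scd and Scd2 on the lower side and those of Apoe and Nr1h2 on the higher side, together with single probe sets of Lipa (1.63) and Scarb1 (1.01), while 1 probe set of Scd2 lies just inside, at -0.98.

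Across the 11 member probe sets above the background ceiling on both arrays, 9 were lower and 2 higher on the endocardial array, while 52.5% of all such probe sets were lower. The 2 higher ones were those of Idi1 and Sqle. Because the members were chosen with these ratios known, nothing is read from that count.

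**Figure D5:**
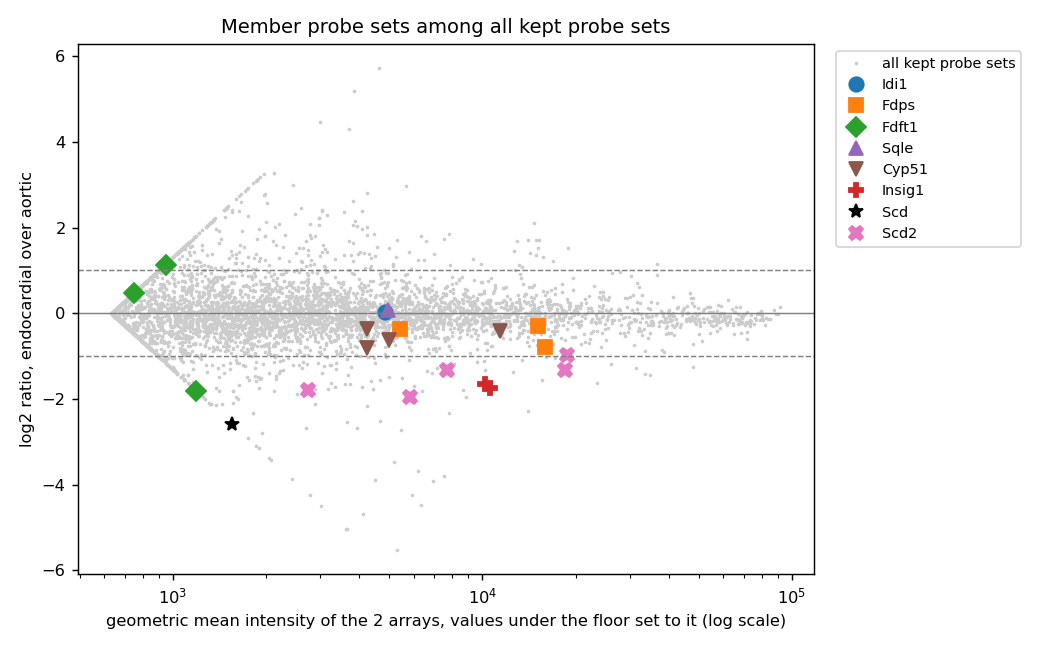
Log2 ratio, endocardial over aortic (vertical axis), against the geometric mean intensity of the 2 arrays (horizontal axis, log scale) for all 4808 kept probe sets (grey) and for the probe sets of the members and Scd2 (coloured). Dashed lines mark 2-fold; the Insig1 points lie between -1.74 and -1.66 and the Scd2 points between -1.94 and -0.98, while Idi1 and Sqle lie near the line of equal intensity.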

How the data were processed

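Per the labels, total RNA of 1 endocardial and 1 aortic culture was hybridised to Affymetrix rat U34A arrays. The deposited values are linear intensities, with 1 value for each probe set on each array; the sources used here do not give the software that summarised them. Depth does not apply to arrays, and 1 array per group limits the precision. The 59 control probe sets were set aside, and the 8740 others were scaled to a common 2% trimmed mean. Floor, filter and ratios were as in the report; a gene's value was the median log2 ratio of its kept probe sets. Genes came from the platform annotation (7006 probe sets with 1 symbol, 308 with several, 1426 with none), with symbols checked by gene identifier against RefSeq (GRCr8, 6985 matched, 0 changed). A bound was taken against the floor or the background ceiling where the dimmer value was under it. Genes named were all members, the 2 highest and 2 lowest of each list, and those past 2-fold; others are marked as picked later. Members and lists were chosen with earlier results of these data known. The code for calling was checked on simulated data, which gives no measure of the precision of these ratios. Alternatives covered scaling (none, quantile, median centring, loess with span 0.4), the floor (75th percentile, background ceiling, none), an offset of 100, the brightest probe set, and probe sets as units. Python 3.11.15, pandas 2.3.3 and statsmodels 0.14.6 were used.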

Additional observations from a re-analysis of the deposited data

How the results depend on the processing

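Insig1 (log2 ratio from -1.74 to -1.66) and Scd2 (from -1.33 to -1.29) kept their direction under all 10 alternatives. So did Cyp51 (from -0.52 to -0.41) and Fdps (from -0.80 to -0.33). Idi1 (from 0.03 to 0.08) and Sqle (from 0.06 to 0.13) stayed near 0, inside the SD of 0.30 between probe sets of a gene. Each had 1 kept probe set, so the choice of probe set could not change its ratio. Scd was at -0.56 with the floor at the 75th percentile and -1.12 with it at the background ceiling. With each floor it was kept only through its aortic value, so its ratio could only be negative. With no filter Scd was at -4.74, a median that took in its other probe set, whose endocardial value of -321.1 was set to 1. Fdft1 changed direction, as given in the report. The count of members at least 2-fold lower was 2, and was 1 when the 75th percentile was the floor, since Scd came inside 2-fold, 3 with the brightest probe set, which added Fdft1, and 4 in probe sets; the count at least 2-fold higher was 0, and 1 in probe sets, of Fdft1. The member median of -0.38 was -0.80 with the brightest probe set. The efflux list median of 0.36 was 1.80 with no filter on low values. Genes at least 2-fold lower numbered 122, and 40 when the 75th percentile was the floor, 45 with the ceiling as floor, 659 with no filter and 187 in probe sets; those at least 2-fold higher numbered 174, and 45, 76, 679 and 271 in the same order. Fewer features were measured under the higher floors (1505 and 1904 genes) and more without one (4054 genes). Srebf1 had no value under either higher floor, nor Fdft1 with the 75th percentile as floor. No alternative scaling changed a count of members. No paired analysis was possible because each group had 1 array. Signal over background limits Fdft1, Srebf1, Hsd17b7 and the endocardial value of Scd, and the absence of replicate arrays limits every ratio.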
